A study of Mus musculus with 9 samples.

Results

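Integrins and laminins are the receptors and the ligands by which epithelial cells hold on to their basement membrane. Their genes were followed here in 3 kinds of mouse prostate lesion. The set holds every integrin alpha and beta chain gene and every laminin alpha, beta and gamma chain gene, with Itgb2l left out. The set was taken by symbol and by no measured value, though with earlier results of these data known. It came to 35 genes (17 integrin alpha, 8 integrin beta and 10 laminin chains) of 22180 genes with a probe set of their own; Itga10 had none and was not analysed here. Epithelial lesions had been laser-captured from fixed prostate tissue of male mice aged 12 months and of mixed strain, and the amplified RNA was measured on 9 whole-transcript arrays, 3 per group. The first group, called control HG-PIN, was high-grade prostatic intraepithelial neoplasia (dysplastic epithelium still inside the gland) from mice without the T-3Mb-Erg allele. The second was HG-PIN, and the third solid, poorly differentiated adenocarcinoma, from mice with 1 T-3Mb-Erg allele (T-3Mb-Erg/+). All mice of both genotypes were engineered and carried the PbCre transgene, a Cre recombinase driven by a probasin promoter and so active mainly in prostate epithelium; control lesions are therefore not normal tissue. Each of 3 T-3Mb-Erg/+ mice gave both a tumour and a HG-PIN array, which carry 1 replicate number per mouse, and 3 other mice gave the control arrays, 6 mice in all.

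As background, an integrin is a pair of 1 alpha and 1 beta chain that spans the membrane and links matrix outside the cell to the actin or keratin skeleton inside it. A laminin is a trimer of an alpha, a beta and a gamma chain, and laminins form the sheet on which epithelium rests. In stratified and glandular epithelium laminin that contains the Lama3 and Lamb3 chains is bound by integrin alpha 6 beta 4 in hemidesmosomes and by integrin alpha 3 beta 1 elsewhere along the basal face. Loss of the basal layer and of its hemidesmosomes is a known feature of prostate carcinoma.

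Values are log2 of the deposited array intensity, and a difference of 1 is 2-fold. The 1394 olfactory and vomeronasal receptor genes were taken as mostly silent in prostate, and none was left out for known expression there. Their means gave a gauge of background: 95% of them lay below 4.80. Only 7 of the 35 members had a mean above that level over the 9 arrays (6 in control HG-PIN, 6 in HG-PIN with the allele and 9 in tumours), so most differences below are between values near background and their sizes are limited by it. The spread of signal also differed between arrays: the 95th percentile of log2 intensity over genes lay between 5.61 and 6.25, and within the tumours it was 6.0, 5.63 and 6.25 on replicates 1, 2 and 3. As a check of the labelled tissue, all 14 luminal epithelial markers had a mean above 4.80 in both HG-PIN groups and 6 of 14 in the tumours, with Krt8, a luminal keratin, at 7.94 in HG-PIN of T-3Mb-Erg mice and 5.06 in tumours. Erg itself stood at 3.88 ± 0.29 in control HG-PIN, 3.96 ± 0.32 in HG-PIN with the allele and 4.52 ± 0.32 in tumours (SD, n = 3 each). Its group means were all below 4.80 and only tumour replicate 3, at 4.83, was above it, so Erg was not used as a check of the labels.

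**Figure D1:**
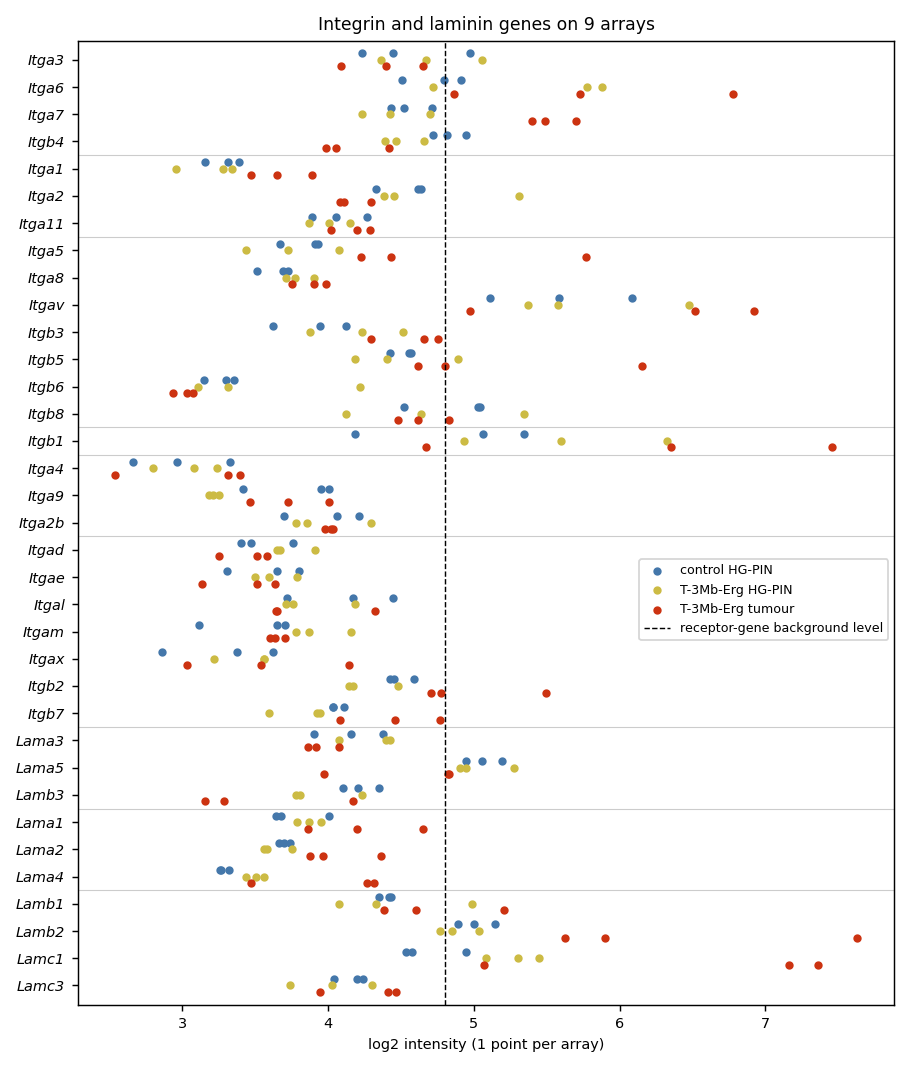
Log2 intensity of the 35 integrin and laminin genes (1 row per gene, horizontal axis in log2 units, 1 point per array, colour by group; grey lines separate roles, and the dashed line is the receptor-gene level of 4.80). The 3 tumour points of Itga7 stand together to the right of all 6 HG-PIN points. Those of Itga1, Itga5, Itgb2, Lama2 and Lamb2 also lie to the right of all 6. Lamb2, Lamc1, Itgb1 and Itga6 have widely spread tumour points.

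Tumours were first set against HG-PIN of the same 3 mice, which addresses what distinguishes the tumour within an animal. Laminin beta 2 and gamma 1 and the integrin alpha chains alpha 7 and alpha 5 had means at least 1 log2 unit higher in tumours, whereas all 3 epithelial laminin chains (Lama3, Lama5, Lamb3) had lower means. The laminin-binding integrin chains were divided, with Itga6 and Itga7 positive and Itga3 and Itgb4 negative. None of these differences passed the test over all genes. Of the 35 members 34 were tested; Itga4, the alpha chain of the leukocyte receptor for Vcam1, was below the signal filter (2.98, 3.04 and 3.08 in the 3 groups). With limma and a Benjamini-Hochberg adjusted p under 0.05 as the threshold, 0 of 34 members were called, where 0.283% of all 16635 genes tested were. At an unadjusted p under 0.05 there were 9 members higher and 0 lower in tumours, beside 3.67% of all genes higher and 3.98% lower. The means differed by at least 1 for 4 members on the higher and 0 on the lower side, beside 1.62% and 1.97% of all genes. The tumour and HG-PIN arrays did not overlap for 8 members on the higher and 5 on the lower side, beside 4.97% and 6.43% of all genes. The sign was the same in 3 of 3 mice for 10 members higher and 6 lower, beside 11.5% and 13.1% of all genes. The median log2 difference was 0.26 over members and -0.01 over all genes tested. The members share tissue and arrays and are not independent of each other, so these shares describe the set and carry no test.

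**Figure D2:**
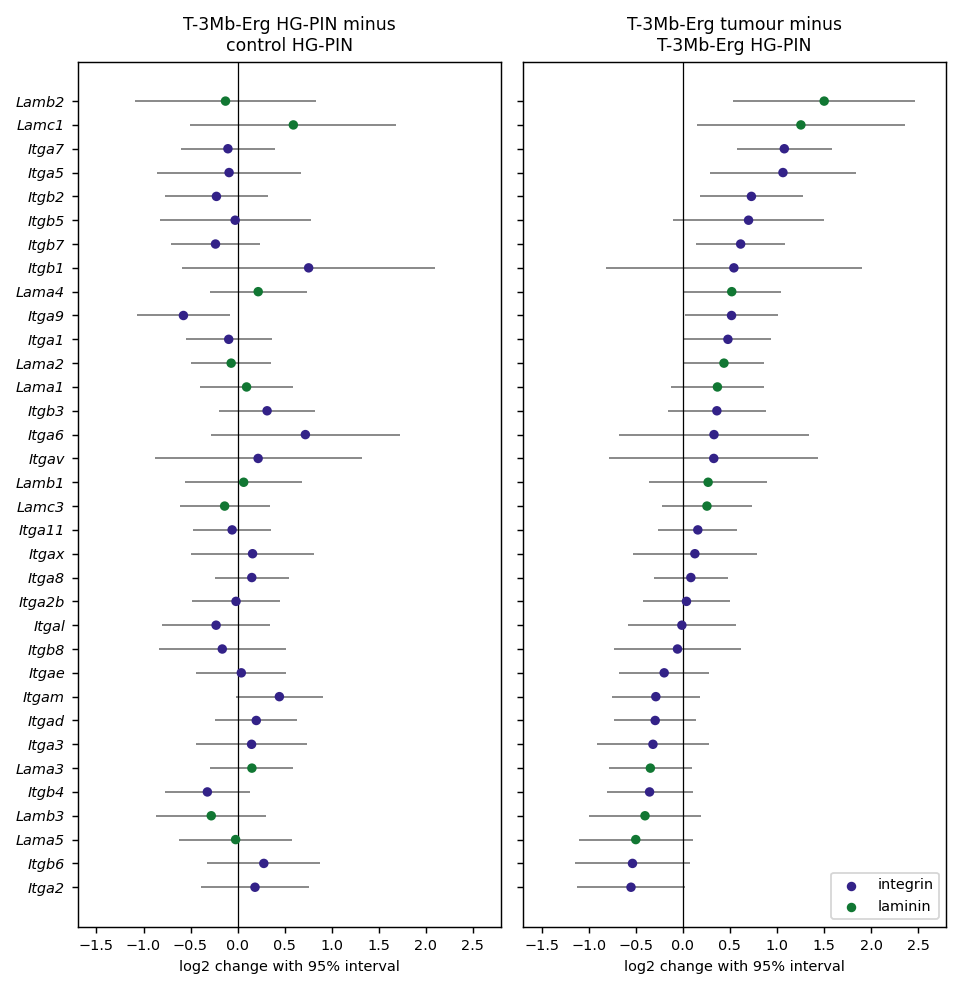
Log2 difference of each of the 34 tested members (points, purple for integrins and green for laminins) with its 95% interval from limma (bars), for the genotype comparison at HG-PIN (left) and for tumour minus HG-PIN of the same mice (right), ordered by the latter. On the left the points lie between -0.58 and 0.76; on the right Lamb2, at 1.5, and Itga2, at -0.55, are the ends of the range.

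Among the laminin receptors, Itga7, the alpha chain best known from muscle fibres, had the smallest p of all members. Its log2 intensity was 5.49, 5.40 and 5.70 on tumour arrays 1 to 3, against 4.43, 4.23 and 4.70 in HG-PIN of the same mice and 4.43, 4.52 and 4.72 in control HG-PIN. Every tumour array was above every HG-PIN array, and the tumour arrays alone were above the receptor-gene level. The difference was 1.08 (SE 0.23, 95% interval 0.57 to 1.58, 2.11-fold), with 1.06, 1.17 and 1.0 in the 3 mice, and it did not pass over all genes (limma adjusted p = 0.0928). It passed in 3 of 21 alternative settings, with array weights (adjusted p = 0.0159), with the signal range of each array as a term (0.0350) and when HG-PIN replicate 3 of that genotype was left out (0.0499). In that order these settings called 405, 180 and 97 of all 16635 genes tested, against 47 in the reported fit. Fitting the mouse as a fixed replicate block, on the 6 arrays of these 2 groups alone, gave an adjusted p of 0.319. The same 6 arrays without the fixed block gave 0.236, so the block and the loss of the control arrays both enter. Adding 16 to the intensities before the log, which damps differences near background, gave 0.71 for Itga7. Of the smooth muscle markers 2 of 10 had a positive difference, Des (5.5 in HG-PIN and 6.09 in tumours) and Smtn (4.81 and 5.0), the median was -0.69, and the summed intensity of the list was 305 to 1474 in HG-PIN and 233 to 717 in tumours. From HG-PIN to tumour the sum fell on replicates 1 (1474 to 269) and 2 (400 to 233) and rose on replicate 3 (305 to 717). The skeletal muscle list summed to 110 to 168 in HG-PIN and 96.4 to 136 in tumours, with 3 of 6 tested markers positive, and 0 of its 8 markers had a tumour mean above 4.80. Against control HG-PIN, 6 of 10 smooth muscle markers were positive with a median of 0.23. The part of muscle RNA in the Itga7 difference was not tested.

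Itga6 and Itgb4, the 2 chains of the hemidesmosomal receptor, did not go the same way. Itga6, which also pairs with Itgb1, read 6.78, 4.86 and 5.73 in tumours, 5.78, 5.88 and 4.72 in HG-PIN of the same mice and 4.80, 4.51 and 4.91 in control HG-PIN. The tumour and HG-PIN arrays overlapped, and the differences of the 3 mice were 1.0, -1.02 and 1.0 (mean 0.33, SE 0.46, adjusted p = 0.986). Itgb4, which pairs with no other alpha chain, read 4.06, 4.42 and 3.98 in tumours, 4.39, 4.47 and 4.66 in HG-PIN of the same mice and 4.72, 4.82 and 4.94 in control HG-PIN. It was lower in the tumour of 3 of 3 mice by a mean of 0.35 (limma log2 difference -0.35, SE 0.21, adjusted p = 0.807), and the tumour and HG-PIN arrays overlapped. Itga3, the other laminin receptor chain of epithelium, read 4.09, 4.40 and 4.65 in tumours and 5.06, 4.36 and 4.68 in HG-PIN of the same mice, and 4.44, 4.23 and 4.97 in control HG-PIN. Its arrays overlapped in every pair of groups, and its difference of -0.32 (adjusted p = 0.935) came from the first mouse, at -0.97, with 0.03 and -0.02 in the other two.

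Itgb1, the beta chain shared by most of the alpha chains here, was the most variable member. It read 6.36, 4.67 and 7.46 in tumours, 6.33, 5.60 and 4.94 in HG-PIN of the same mice and 5.06, 4.19 and 5.35 in control HG-PIN. Within the tumours the lowest value was on the array with the narrowest signal range and the highest on the one with the widest, as was also so for Itgav, an RGD-binding alpha chain, at 6.52, 4.98 and 6.92. The part of signal range in these differences was not separated from that of the lesion by the reported fit. The Itgb1 difference was 0.54 (SE 0.62, adjusted p = 0.977), 0.39 with the signal range as a term and 0.84 with array weights. It was 1.29 without tumour replicate 2, -0.21 without tumour replicate 3 and 0.01 when HG-PIN replicate 3 of the same mice was left out, or 0.91 when replicate 1 was.

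**Figure D3:**
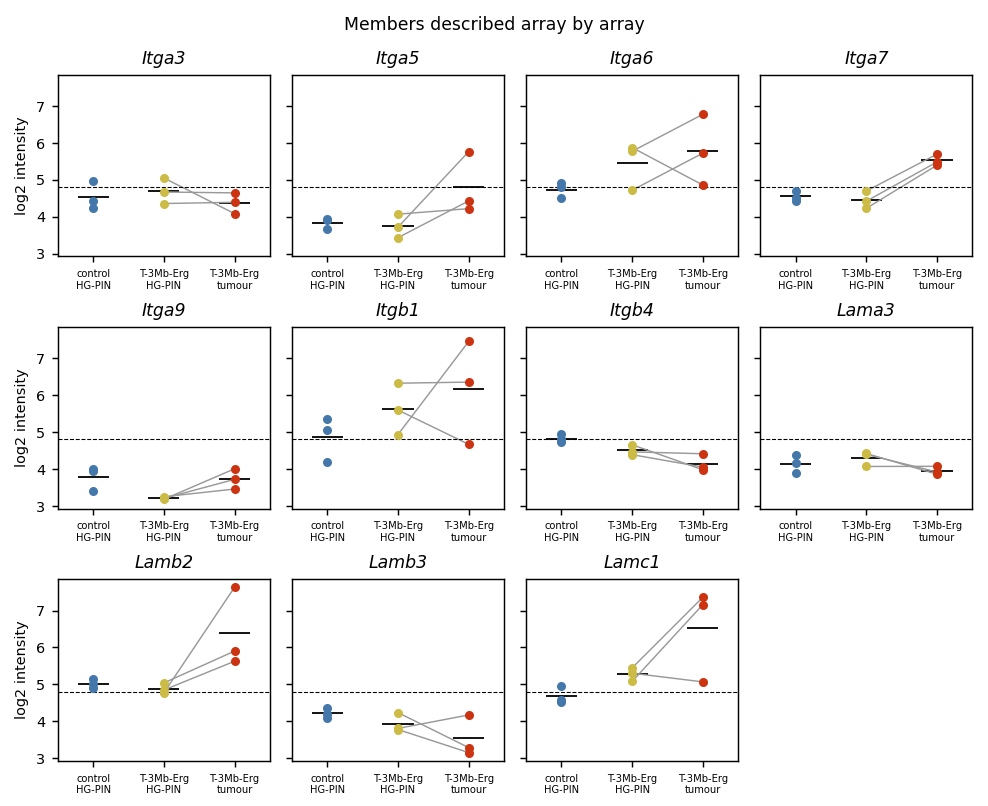
Log2 intensity (vertical axis) of the 11 members described array by array, in control HG-PIN, T-3Mb-Erg HG-PIN and T-3Mb-Erg tumours (1 point per array, short black lines are means of 3 arrays, dashed line the receptor-gene level of 4.80). Grey lines join HG-PIN and tumour of the same mouse: they are parallel for Itga7 and cross for Itga6 and Itgb1.

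Of the fibronectin and RGD receptors, Itga5, the alpha chain of the classical fibronectin receptor, had the largest difference. It read 4.22, 4.43 and 5.77 in tumours, 4.08, 3.44 and 3.72 in HG-PIN of the same mice and 3.67, 3.91 and 3.93 in control HG-PIN. The tumour arrays lay above all HG-PIN arrays, but only tumour replicate 3 stood above the receptor-gene level. The difference was 1.06 (SE 0.35, adjusted p = 0.398) and was 0.58 without that array and 0.61 after adding 16 to the intensities. Itgb5, a beta chain that pairs with Itgav, had a difference of 0.70, and it too was highest in tumour replicate 3 (4.62, 4.80 and 6.15), without which the difference was 0.20. Itgb3, the beta chain of integrin alpha v beta 3 and of the platelet receptor, was higher in the tumour of 3 of 3 mice by 0.88, 0.06 and 0.14. The beta chains that release active TGF-beta from its latent form, Itgb6 and Itgb8, gave -0.54 for Itgb6, where T-3Mb-Erg HG-PIN replicate 2 alone stood high at 4.22, and a difference within 0.1 of 0 for Itgb8. No chain of this role passed (smallest adjusted p = 0.398).

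The collagen receptors divided. Itga1, a collagen receptor chain of mesenchymal and smooth muscle cells, read 3.89, 3.47 and 3.65 in tumours and 3.28, 2.96 and 3.34 in HG-PIN of the same mice, without overlap (difference 0.48, adjusted p = 0.625). Itga2, the collagen receptor chain of epithelium and platelets, read 4.08, 4.11 and 4.30 in tumours and 4.38, 5.31 and 4.45 in HG-PIN of the same mice, also without overlap (difference -0.55, adjusted p = 0.685, and -0.26 without HG-PIN replicate 2). Both sets of values are near background. Itga11, a fibroblast collagen receptor, stayed within 3.87 to 4.29 on all 9 arrays.

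Among leukocyte chains, Itgb2, the common beta chain of the leukocyte integrins, was higher in the tumour of 3 of 3 mice (4.71, 5.5 and 4.77 against 4.15, 4.17 and 4.48, without overlap). The difference was 0.73 (SE 0.25, adjusted p = 0.427) and 0.48 without tumour replicate 2, and control HG-PIN lay between 4.43 and 4.59. Its alpha partners did not accompany it: Itgam, of macrophages and neutrophils, and Itgad had lower tumour means without overlap, and Itgal and Itgax had overlapping arrays. Itgb7, the beta chain of gut-homing lymphocytes, gave 0.61 (adjusted p = 0.454). Of the macrophage and myeloid markers 5 of 12 had a positive difference and 1, Cd14, was called lower (-1.73, adjusted p = 0.0409), and the list summed to 341 to 537 in HG-PIN and 314 to 592 in tumours. The T and NK cell list had 2 of 7 positive and summed to 150 to 176 and 133 to 182. In captured tissue measured in bulk, fewer cells of a type and less RNA per cell cannot be told apart.

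Of the laminins, all 3 epithelial chains (Lama3, Lama5, Lamb3) had negative differences, between -0.50 and -0.35. The 3 mesenchymal and early chains (Lama1, Lama2, Lama4) and the 4 remaining beta and gamma chains (Lamb1, Lamb2, Lamc1, Lamc3) had positive ones, between 0.26 and 1.5. Of all genes, 8139 of the 16635 tested were positive, and the difference between these groups of chains was not tested. None of the 10 was called, and 3 (Lamb2, Lamc1 and Lama2) had an unadjusted p under 0.05. Lamb2, a beta chain of vessel, muscle and synaptic basement membranes, read 7.63, 5.90 and 5.63 in tumours, 4.77, 5.04 and 4.85 in HG-PIN of the same mice and 5.0, 5.15 and 4.89 in control HG-PIN. Every tumour array stood above every HG-PIN array, with tumour replicate 1 far above the rest. The difference was 1.5 (SE 0.44, 95% interval 0.53 to 2.47, 2.83-fold, adjusted p = 0.299), and 0.89 without tumour replicate 1. Lamc1, the gamma chain common to most laminins, read 7.36, 5.07 and 7.16 in tumours, 5.45, 5.30 and 5.08 in HG-PIN of the same mice and 4.53, 4.95 and 4.57 in control HG-PIN. Tumours 1 and 3 were high and tumour 2 lay below its own HG-PIN, with mouse differences of 1.91, -0.23 and 2.08. The difference was 1.25 (SE 0.50, adjusted p = 0.542), and 0.82 without tumour replicate 1. Without tumour replicate 2, the tumour array with the narrowest signal range, it was 1.98 and passed (adjusted p = 0.0189), and with array weights it was 1.85 (adjusted p = 0.0202). These settings called 110 and 405 of all 16635 genes tested, against 47 in the reported fit.

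Promoters are shown for the members with a difference of at least 1 and the same sign in 3 of 3 mice, as far as the RefSeq promoter table (GRCm38.p6) holds them, which it does for Lamb2 and Itga5; 22 of the 35 members had an entry. Each is the 250 bases before the annotated start, 5′ to 3′ on the strand of the gene, at chr9:108479612-108479861 (plus strand) for Lamb2 and chr15:103366792-103367041 (minus strand) for Itga5. Capitals mark matches, on either strand, to GGAAGT, which holds the core bound by ETS factors such as Erg and Ets2, or to the GC box GGGCGG; the 2 motifs do not overlap.
Lamb2: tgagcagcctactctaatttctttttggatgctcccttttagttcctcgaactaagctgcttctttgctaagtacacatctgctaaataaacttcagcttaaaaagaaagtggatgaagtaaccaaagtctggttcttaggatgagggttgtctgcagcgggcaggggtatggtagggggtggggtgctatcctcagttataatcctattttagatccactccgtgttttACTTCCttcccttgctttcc
Itga5: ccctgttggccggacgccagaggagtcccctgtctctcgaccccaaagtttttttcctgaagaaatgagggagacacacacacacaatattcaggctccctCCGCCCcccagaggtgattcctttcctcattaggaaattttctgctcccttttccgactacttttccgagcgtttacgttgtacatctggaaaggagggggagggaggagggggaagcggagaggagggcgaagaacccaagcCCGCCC
The Lamb2 window holds 1 match to GGAAGT, on the opposite strand with its first base 20 bases before the start, and no GC box. The Itga5 window holds 2 GC boxes and no match to GGAAGT. A match to GGAAGT was found in 19.7% and a GC box in 32.7% of all 32851 windows of the same length, and in 8 and 9 of the 25 windows of member genes. These are matches of letters and say nothing of binding, and the arrays do not tell which start is used.

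The mesenchymal alpha chains had smaller differences. Lama2, of muscle and nerve basement membrane, read 4.36, 3.97 and 3.88 in tumours and 3.75, 3.56 and 3.58 in HG-PIN of the same mice, without overlap (difference 0.44, adjusted p = 0.631, and 0.28 without tumour replicate 1). Lama4, of vessels and fat, read 4.27, 3.47 and 4.32 in tumours and 3.50, 3.56 and 3.44 in HG-PIN (difference 0.52, adjusted p = 0.658, and 0.79 without tumour replicate 2), with tumour 2 again among the HG-PIN values. All of these lie below 4.80. Lama1, Lamb1 and Lamc3 had overlapping arrays.

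On the epithelial side, Lama5, the alpha chain of most mature epithelial basement membrane, read 3.98, 4.83 and 4.83 in tumours, 5.28, 4.91 and 4.95 in HG-PIN of the same mice and 5.05, 4.95 and 5.19 in control HG-PIN. All tumour arrays were below all HG-PIN arrays, with tumour replicate 1 lowest (difference -0.50, SE 0.28, adjusted p = 0.778), and without that array the difference was -0.24. Lamb3 read 3.15, 4.17 and 3.29 in tumours, 3.78, 3.81 and 4.24 in HG-PIN of the same mice and 4.21, 4.35 and 4.10 in control HG-PIN. Tumours 1 and 3 were low, and tumour 2 lay among the HG-PIN arrays (difference -0.40, adjusted p = 0.861, and -0.20 without tumour replicate 1). Lama3 read 3.92, 3.86 and 4.08 in tumours, 4.40, 4.42 and 4.07 in HG-PIN of the same mice and 4.38, 3.91 and 4.16 in control HG-PIN, with overlap (difference -0.35, adjusted p = 0.806). The values of Lama3 and Lamb3 are below the receptor-gene level on all 9 arrays.

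Markers of other cells are given beside these laminin differences. All 12 tested fibroblast markers had a positive difference between tumour and HG-PIN, with a median of 1.16. The signal filter used all 9 arrays, so a marker low in HG-PIN could be tested through its tumour values. Examples are Pdgfra (3.36 in HG-PIN of the same mice and 5.31 in tumours) and, among endothelial markers, Emcn (3.21 and 4.23). Fap (2.88 and 2.76) and Dpt (3.15 and 3.19) were left out by the filter. The summed intensity of the 14 markers on the array was 332.2 to 724 in HG-PIN and, in tumours 1 to 3, 1617, 576 and 3553. Within the tumours it was lowest in replicate 2, the array with the narrowest signal range, as were Lamc1, Lama4 and Itgb1. Lamb2 and Lama2 were instead lowest in tumour replicate 3, where the sum was highest, and Itga5 was lowest in tumour replicate 1. Of the 14, 8 had a tumour mean above the receptor-gene level, against 5 in HG-PIN of the same mice, with Col1a2, a chain of collagen I, at 8.87, and 6 did not, with Fap, at 2.76, the lowest. Endothelial markers had 8 of 10 positive with a median of 0.26, and summed to 171 to 207 in HG-PIN and 219 to 456 in tumours. Only Cdh5, at 5.96, and Pecam1, at 5.40, were above 4.80 in tumours, and the other 10 of 12 on the array were below, with Tek, at 2.47, the lowest. No marker of either list was called, and their part in the laminin and integrin differences was not tested. The luminal list went the other way, with 0 of 14 positive, 7 called lower and a median of -2.58. The basal list, with 3 of 10 positive and a median of -0.28, had 1 called lower, the basal keratin Krt15 (log2 difference -3.0, adjusted p = 0.0158). The differences of Lama3, Lama5, Lamb3 and Itgb4 lay between -0.50 and -0.35, beyond the median of the basal list and nearer to 0 than that of the luminal list; whether they differ from either was not tested.

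HG-PIN with the T-3Mb-Erg allele was then compared with control HG-PIN, the same lesion in the other genotype. All 3 mice with the allele also gave a tumour array, and the controls were 3 other mice. The allele, the presence of that tumour and the animal therefore cannot be told apart here. No integrin or laminin gene differed by the test, and the differences were balanced, with 17 positive and 17 negative and a median of 0.01 (-0.0036 over all genes). limma called 0 of 34 members, where 0% of all 16635 genes were called, and at an unadjusted p under 0.05 there was 1 member, Itga9, beside 4.1% of all genes. The groups did not overlap for 3 members on the higher and 3 on the lower side, beside 4.86% and 5.25% of all genes, and 0 differed by at least 1, beside 1.51%. The median half-width of the 95% interval was 0.53, and the interval of 28 of 34 members lay within -1 and 1, so for these a 2-fold difference in signal was outside the interval. Itga9, a chain that binds tenascin C, read 3.25, 3.21 and 3.18 in T-3Mb-Erg HG-PIN against 4.0, 3.95 and 3.42 in control HG-PIN (difference -0.58, SE 0.22, adjusted p = 0.998). The T-3Mb-Erg arrays lay together below all control arrays, all of them under the receptor-gene level, and tumours of the same mice read 3.46, 3.72 and 4.01. Lamc1 was higher on every T-3Mb-Erg HG-PIN array than on any control array by the values above (difference 0.59, SE 0.50, adjusted p = 0.998). Itgb4 was lower on every T-3Mb-Erg HG-PIN array (difference -0.32, SE 0.21), and Itgam higher (0.44), both at adjusted p = 0.998. Itgb7 and Lama4 were the other two without overlap. Itgb1 and Itga6 had the largest positive differences, 0.76 and 0.72, with overlapping arrays, and that of Itgb1 ran from 0.39 to 1.29 with single arrays left out. Among markers, several lists had mostly positive differences with no gene called. All 10 smooth muscle genes were positive with a median of 0.82 and a summed intensity of 250 to 322 in control lesions and 305 to 1474 in those with the allele, highest on replicate 1, the array on which Itgb1 and Itgav also read highest in that group. That array also had the widest signal range of its group (6.16, against 5.83 and 5.78). Its luminal and macrophage sums (4129 and 537) were the highest of the group too, whereas the fibroblast sum was highest on replicate 2. Of the basal epithelial markers 9 of 10 were positive, with sums of 329 to 399 in control lesions and 684 to 808 in those with the allele. Of the fibroblast markers 10 of 12 were positive, with sums of 278 to 300.2 and 332.2 to 724, and of the luminal markers 12 of 14 were, with sums of 1123 to 3680 and 1905 to 4129. The part of these markers in the differences of Itgb1, Lamc1 and the other members was not tested.

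Set against control HG-PIN, where lesion and genotype both differ and the mice are other animals, tumours again gave no called member (0 of 34, beside 0.18% of all genes). This comparison shares its arrays with the other two and is given only for its own values. At an unadjusted p under 0.05 there were 7 members higher and 2 lower, beside 4.74% and 4.59% of all genes, and the groups did not overlap for 11 members on the higher and 4 on the lower side, beside 6.2% and 7.51%. The largest difference was that of Lamc1 at 1.85 (SE 0.50, 95% interval 0.75 to 2.94, adjusted p = 0.190), for which all 3 tumours lay above all 3 control arrays. Itga7 gave 0.97 (adjusted p = 0.124), Lamb2 1.37 and Lama4 0.74 (both adjusted p = 0.284), and Lamb2 0.76 without tumour replicate 1. Array weights called 9 members here, and leaving out tumour replicate 2 called Lamc1 (2.57, adjusted p = 0.00212) and Lama4 (1.01, adjusted p = 0.0307). The same settings called 938 and 261 of all 16635 genes tested, against 30 in the reported fit. On the lower side Itgb4 gave -0.68 (SE 0.21, 95% interval -1.13 to -0.22, adjusted p = 0.261), without overlap, and Lamb3 -0.68 (adjusted p = 0.430), with overlap through tumour 2. The group means of Itgb4 descended from 4.83 in control HG-PIN to 4.51 in HG-PIN with the allele and 4.15 in tumours, and those of Lamc1 ascended from 4.68 to 5.28 and 6.53, but neighbouring groups did not differ by the test.

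**Figure D4:**
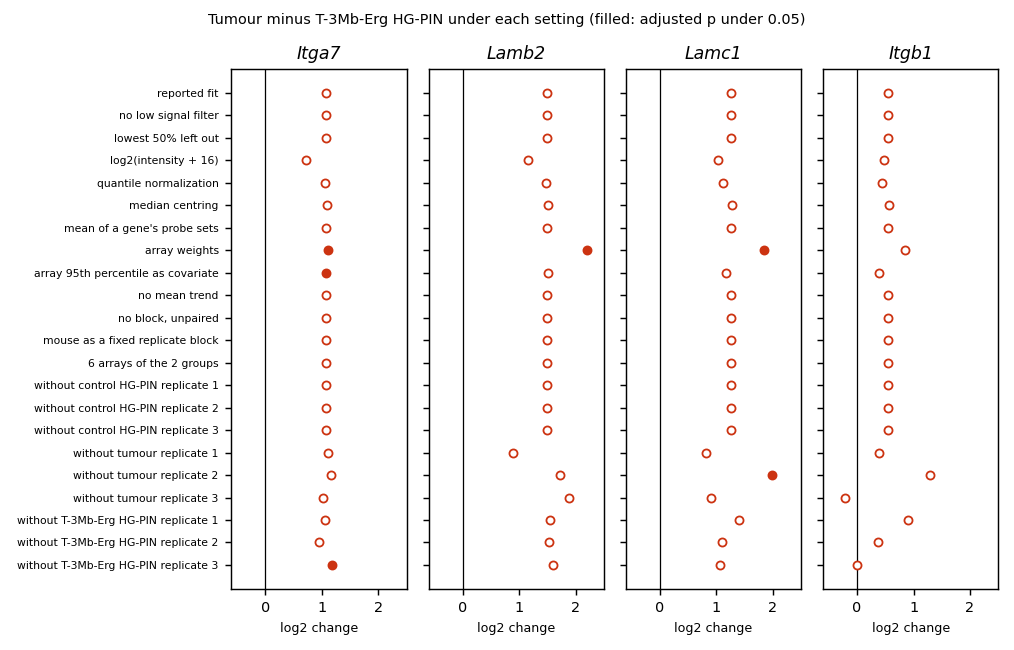
Log2 difference between tumour and HG-PIN of the same mice (horizontal axis) for Itga7, Lamb2, Lamc1 and Itgb1 in the reported fit and under 21 alternative settings (rows); filled points have an adjusted p under 0.05. Itga7 stays between 0.71 and 1.18, while Itgb1 runs from -0.21 to 1.29 depending on which array is left out.

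Of the known partners of integrins and laminins, listed by function, 1 was called in tumours against HG-PIN of the same mice, beside 0.283% of all genes tested. Of 20 tested genes of hemidesmosomes and basement membrane, 13 were positive, the median was 0.21 and 0 were called. The smallest p values were those of Bcam, a laminin receptor of the immunoglobulin family (0.91, SE 0.25, adjusted p = 0.251), and Nid1, which ties laminin to collagen IV (1.39, SE 0.40, adjusted p = 0.291). Of 30 integrin adaptors and activators, which couple the cytoplasmic tails to actin, 18 were positive, the median was 0.10 and 0 were called; Tns1, a tensin of focal adhesions, had the smallest p (0.92, adjusted p = 0.484). Of 23 integrin ligands other than laminins, 14 were positive with a median of 0.06. The 1 called was Cdh1, the epithelial cadherin that also binds Itgae, which was lower in tumours (-2.88, adjusted p = 0.0424), while Itgae itself stayed between 3.14 and 3.80 on all 9 arrays. Cdh1 is also on the luminal marker list, of which 14 of 14 genes were lower and 7 were called. At HG-PIN the 3 lists had medians of 0.18, -0.02 and 0.17 with 0 called, and the ligand with the smallest p was Fn1, fibronectin (1.66, SE 0.73, adjusted p = 0.998). The 5 tested genes whose log2 values were most like those of Itga7 over the 9 arrays were Ubxn7 (Pearson's r = 0.98), Mcrs1 (0.96), Arhgdib (0.95), Fzd2, a Wnt receptor (0.94), and Spred1, an inhibitor of Ras signalling (0.94), given as a description only.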

How the data were processed

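Per the labels' protocols, lesions were laser-captured from fixed prostate sections, and their RNA was amplified with a NuGEN kit before hybridisation to Affymetrix Mouse Gene 2.0 ST arrays. The authors deposited 1 linear intensity per probe set and array, for 41345 probe sets. How background was corrected, probes were summarised and arrays were normalized is not given in the sources used here, and any of these steps could scale the differences. The log2 of the deposited values was taken without a pseudocount. Arrays have no read depth, and 3 per group limit the precision. Gene names came from the platform annotation and were updated by Entrez identifier with RefSeq (GRCm38.p6); 23521 probe sets had exactly 1 symbol (23328 with a matching identifier), 1814 several and 16010 none. The brightest probe set by mean log2 was kept for each gene; of the members only Itgav had another. Genes in the lowest 25% of mean log2 (below 3.25) were removed, leaving 16635. limma 3.58.1 in R 4.3.3 fitted group means over all 9 arrays, with the mouse as a random block (duplicateCorrelation, consensus correlation -0.01), eBayes with a mean trend and Benjamini-Hochberg adjustment over all genes, and the fit was tested on simulated data. The pairing comes from mouse identifiers in the labels; deviations of same-mouse arrays from group means correlated at 0.17, 0.10 and -0.30.

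The members and lists were chosen with earlier results of these data known. A member was described array by array if it belonged to the laminin chains Lama3 and Lamb3 or their receptors, differed by at least 1 with the same sign in 3 of 3 mice, or differed by at least 0.5 without overlap between the HG-PIN groups; values of some others are given by role and were chosen after being seen. Of a list, up to 4 called genes or else those with the smallest p are named. Marker lists for platelets and for Schwann cells had 0 called genes in any comparison. Alternatives changed the filter, scale, normalization, probe sets, weights, covariates, block and arrays used. A further allele pair shared by all mice and some other items are not reported here.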

Additional observations from a re-analysis of the deposited data

How the results depend on the processing

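No member was called between the HG-PIN groups under any of 20 alternatives. Between tumours and HG-PIN of the same mice 17 of 21 alternatives called none; array weights called 4 members (Itga7, Itgb7, Lamb2 and Lamc1), the signal range as a term called 1 (Itga7), and leaving out single arrays gave 0 to 1 (Lamc1 without tumour replicate 2, Itga7 without T-3Mb-Erg HG-PIN replicate 3). Between tumours and control HG-PIN array weights called 9 (Itga6, Itga7, Itgb3, Itgb4, Lama4, Lama5, Lamb2, Lamb3 and Lamc1), and leaving out single arrays gave 0 to 2 (Lama4 and Lamc1 without tumour replicate 2). Over all genes the counts ran from 0 to 9 between the HG-PIN groups, 0 to 405 (47 reported) between tumours and HG-PIN of the same mice, and 0 to 938 (30 reported) between tumours and control HG-PIN, the highest each time with array weights. A fixed replicate block for the mouse left 26 genes and no member past the threshold between tumours and HG-PIN of the same mice. That fit used the 6 arrays of these 2 groups alone, which without the fixed block left 50 genes and no member. All 9 arrays without any block left 49 genes and no member, so no call of a member changed in these fits.

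Among the values counted below, signs turned for small differences that never passed, and the cause was not tested. At HG-PIN, Itga3 (0.15) was -0.069 with array weights, and with single arrays left out ran from -0.011 to 0.36, Itga5 from -0.21 to 0.10 and Itga7 from -0.20 to 0.022. Between tumours and HG-PIN of the same mice, leaving out arrays moved Itga6 from -0.19 to 0.75, Itgav from -0.13 to 0.93 and Itgb1 from -0.21 to 1.29. Between tumours and control HG-PIN it moved Itga3 from -0.33 to 0.042 and Itga9 from -0.25 to 0.072. Of the single-member values counted, 1153 kept direction and side of the threshold, 18 passed it and 15 turned sign. The count left out the smallest differences of each comparison, except for members described array by array. Differences near 0, which turn sign most easily, are therefore under-represented in it. Signal near background limits all members but the 7 with a mean above 4.80 over all arrays, and some of these too. Itga7 was above that level only in tumours, with means of 4.56 in control HG-PIN, 4.45 in HG-PIN with the allele and 5.53 in tumours. The control HG-PIN means of Itga6 (4.74) and Lamc1 (4.68) and the tumour mean of Lama5 (4.54) were also below it.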
